A study of Mus musculus with 16 samples.

Results

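The Hox cluster genes were taken as all protein-coding genes of the GENCODE M21 annotation (mouse build mm10) named Hoxa, Hoxb, Hoxc or Hoxd followed by digits only, which gave 39 of 21938 protein-coding genes on the main chromosomes. They were 11 Hoxa, 10 Hoxb, 9 Hoxc and 9 Hoxd genes. What was measured is the number of DNA double-strand break ends in each gene and over each cluster, by BLISS, in which an adapter is ligated to free DNA ends inside fixed cells and the adjoining DNA is sequenced. All 16 libraries came from AB22, a mouse line of malignant mesothelioma, a cancer of the membrane around lungs and gut. Of these, 8 came from cells carrying an inducible control hairpin (shCTRL) and 8 from cells carrying an inducible hairpin against HMGB1 (shHMGB1), an abundant DNA-bending chromatin protein. Within each hairpin, 2 libraries each were made after 0, 3, 5 and 10 Gy of gamma rays from a caesium source, which gave 8 groups of 2. All groups shared the pTRIPZ lentiviral vector, puromycin selection, doxycycline, growth in 5% oxygen and synchronisation in G1, and all derive from 1 cell line. Both libraries of a group are labelled as biological replicates, with no word on whether their cultures were separate, so p-values measure the spread between these libraries. Ends are not transcripts, and neither the knockdown of HMGB1 nor the expression of a Hox gene can be read from them.

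Hox genes encode homeodomain transcription factors that give cells of the embryo their position along the head-to-tail axis and along the limbs. In mammals they stand in 4 clusters, numbered from paralog 1, expressed early and towards the head, to paralog 13, expressed late and towards the tail and the limb tips, so that the order of the genes matches the order of their use. Adult cells keep a part of this code. Polycomb complexes hold unused stretches silent, trithorax and MLL complexes keep used stretches active, and a cluster can be split into an active and a silent part. Transcription is a known source of double-strand breaks at promoters and in gene bodies, and open DNA is also more accessible to the blunting and ligation of BLISS.

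The libraries held 131430 (shCTRL 3 Gy replicate 2) to 1010888 (shHMGB1 10 Gy replicate 1) ends on the main chromosomes, 11380784 in all, and the 4 clusters together held few of them in any library. As a yardstick for the readings below, the median over protein-coding genes was 7 ends within 1 kb of the gene start and 3.35 ends per kb of gene body, all libraries summed. Ribosomal protein genes, active in every cell, had medians of 29 ends near the start and 23.9 per kb (82 genes). Olfactory receptor genes, silent outside the nose, had medians of 5 and 2.85 per kb (1093 genes). The label of a mesothelial tumour was checked the same way. The 12 mesothelial markers had medians of 3 ends near the start and 2.91 per kb of gene body, both below the protein-coding medians. At the start 0 of the 12 lay above the 90th percentile of 25 ends, and the highest were Pdpn with 19, Tmem151a with 19 and Msln with 9. The gene body of Msln held 42.3 per kb, far from the median of its list. The 9 fibroblast markers had medians of 21 ends and 7.06 per kb, with 3 above that percentile (Col1a1 with 273, Col1a2 with 36 and Col3a1 with 26). The 8 blood markers had medians of 4 and 2.64 per kb and the 6 neuronal markers 4.5 and 2.31, with 0 above it. As a list the mesothelial markers did not stand out, so the label was not borne out by ends, which do not measure expression.

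The clusters also encode microRNAs, short RNAs that silence messages matching their seed. The densest stretch of ends in any Hox cluster lay within 1 kb of 1 of them, Mir10b. The RefSeq mature sequences (GRCm38.p6) of the microRNAs in the clusters that share a seed are shown for orientation, with the seed, bases 2 to 8, in capitals.
mmu-miR-10a-5p: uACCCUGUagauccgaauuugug
mmu-miR-10b-5p: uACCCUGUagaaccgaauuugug
mmu-miR-196a-5p: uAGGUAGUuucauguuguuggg
mmu-miR-196b-5p: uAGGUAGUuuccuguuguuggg
The miR-10 pair shares 1 seed and the miR-196 set another. Mir10b (chr2:74726070-74726137, plus strand, inside the gene models of Hoxd3 and Hoxd4) had 136 ends within 1 kb, from 15 libraries, and 0 inside the hairpin itself. Mir10a (chr11:96317165-96317274, plus strand), its counterpart beside Hoxb4, had 16. Mir196b, inside the gene model of Hoxa9, had 15, Mir615 had 4, and both Mir196a copies, beside Hoxb9 and in the Hoxc cluster, had 2 each. Only the surroundings of Mir10b stood beyond the 90th percentile of gene starts. They overlap the surroundings of the inner Hoxd4 start described below, and the 78 ends of the densest 50 bases count for both. Those 78 ends had their median position 141 bases from that start and began 764 bases beyond the hairpin.

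RefSeq (GRCm38.p6) gave promoter windows for 22 of the 39 genes, 24 windows in all, and the contrast within them is shown by 3 of these: the pair with the most ends among those that could be printed free of UTR, Hoxb4 and the inner start of Hoxa10, and Hoxd13, a window rich in CG that held 0. Each is the 250 bases before the start, with capitals at every base that carried an end in any of the 16 libraries.
Hoxb4: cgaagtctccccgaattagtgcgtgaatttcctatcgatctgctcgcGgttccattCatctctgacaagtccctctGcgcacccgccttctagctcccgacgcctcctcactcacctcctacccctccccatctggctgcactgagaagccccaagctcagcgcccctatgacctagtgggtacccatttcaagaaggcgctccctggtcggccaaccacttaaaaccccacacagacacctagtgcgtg
Hoxa10: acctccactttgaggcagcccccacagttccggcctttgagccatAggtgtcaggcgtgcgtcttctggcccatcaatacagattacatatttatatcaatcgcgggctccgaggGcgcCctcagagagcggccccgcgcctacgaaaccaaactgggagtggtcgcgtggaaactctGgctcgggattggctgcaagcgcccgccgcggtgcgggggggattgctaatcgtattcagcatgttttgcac
Hoxd13: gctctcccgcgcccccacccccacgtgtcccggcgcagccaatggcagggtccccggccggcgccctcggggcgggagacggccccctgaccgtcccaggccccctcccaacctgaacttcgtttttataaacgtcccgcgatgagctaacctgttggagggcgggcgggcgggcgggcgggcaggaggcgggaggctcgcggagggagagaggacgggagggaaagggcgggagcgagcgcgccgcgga
The Hoxb4 window (chr11:96318017-96318266, plus strand) held 7 ends at 3 bases and the Hoxa10 window (chr6:52234940-52235189, minus strand) 6 ends at 4 bases. The Hoxd13 window (chr2:74667975-74668224, plus strand) held 0 ends although its 300-base RefSeq window had 37 CG pairs, more than 94.4% of the 32817 windows in the table. Over the 24 Hox windows the median was 14.5 CG pairs against 7 over the whole table, and 33.3% held no end against 47.2%. The whole table covers 26994 genes, more than the 21938 protein-coding genes used above, and was not matched to the Hox genes by gene type. The letters TATAAA on either strand stood in 16.7% of Hox windows and 13.6% of all windows. The 300-base windows of Hoxa13, Hoxb1, Hoxd1 and Hoxd9, both windows of Hoxd11 and the outer window of Hoxa10 also held 0 ends.

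Along the chromosomes the ends were spread unevenly, and each cluster had 1 to 3 dense stretches between sparse ones. In Hoxa (chr6:52155590-52260880) the densest 5 kb bin, at 90 to 95 kb from the start of the span, held 12.4 ends per kb. It covered the start of Hoxa11 but lay mostly upstream of that gene, where the noncoding gene Hoxa11os is annotated. The next bins were at 65 to 70 kb, over the outer start of Hoxa7 and the end of Hoxa9, with 11.6, and at 55 to 60 kb. The latter, over the start of Hoxa3 and the end of Hoxa7, held 11. In Hoxb (chr11:96194316-96368256) the densest bins were at 100 to 110 kb over Hoxb6, with 14.6 and 13.6 per kb in the adjoining bins. In Hoxc (chr15:102921103-103036852) 1 bin at 45 to 50 kb, at the start of Hoxc10, held 16.4 per kb, and the next, over Hoxc6, 8.20. In Hoxd (chr2:74668310-74765142) the bin at 55 to 60 kb, inside Hoxd3 and Hoxd4, held 183 ends or 36.6 per kb, the highest bin of any cluster. The bin at 45 to 50 kb, inside the same 2 genes, held 89 ends or 17.8 per kb, more than any bin outside Hoxd. The bin at 40 to 45 kb held 10.4. The plot of ends along the clusters shows these stretches for both hairpins.

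**Figure D1:**
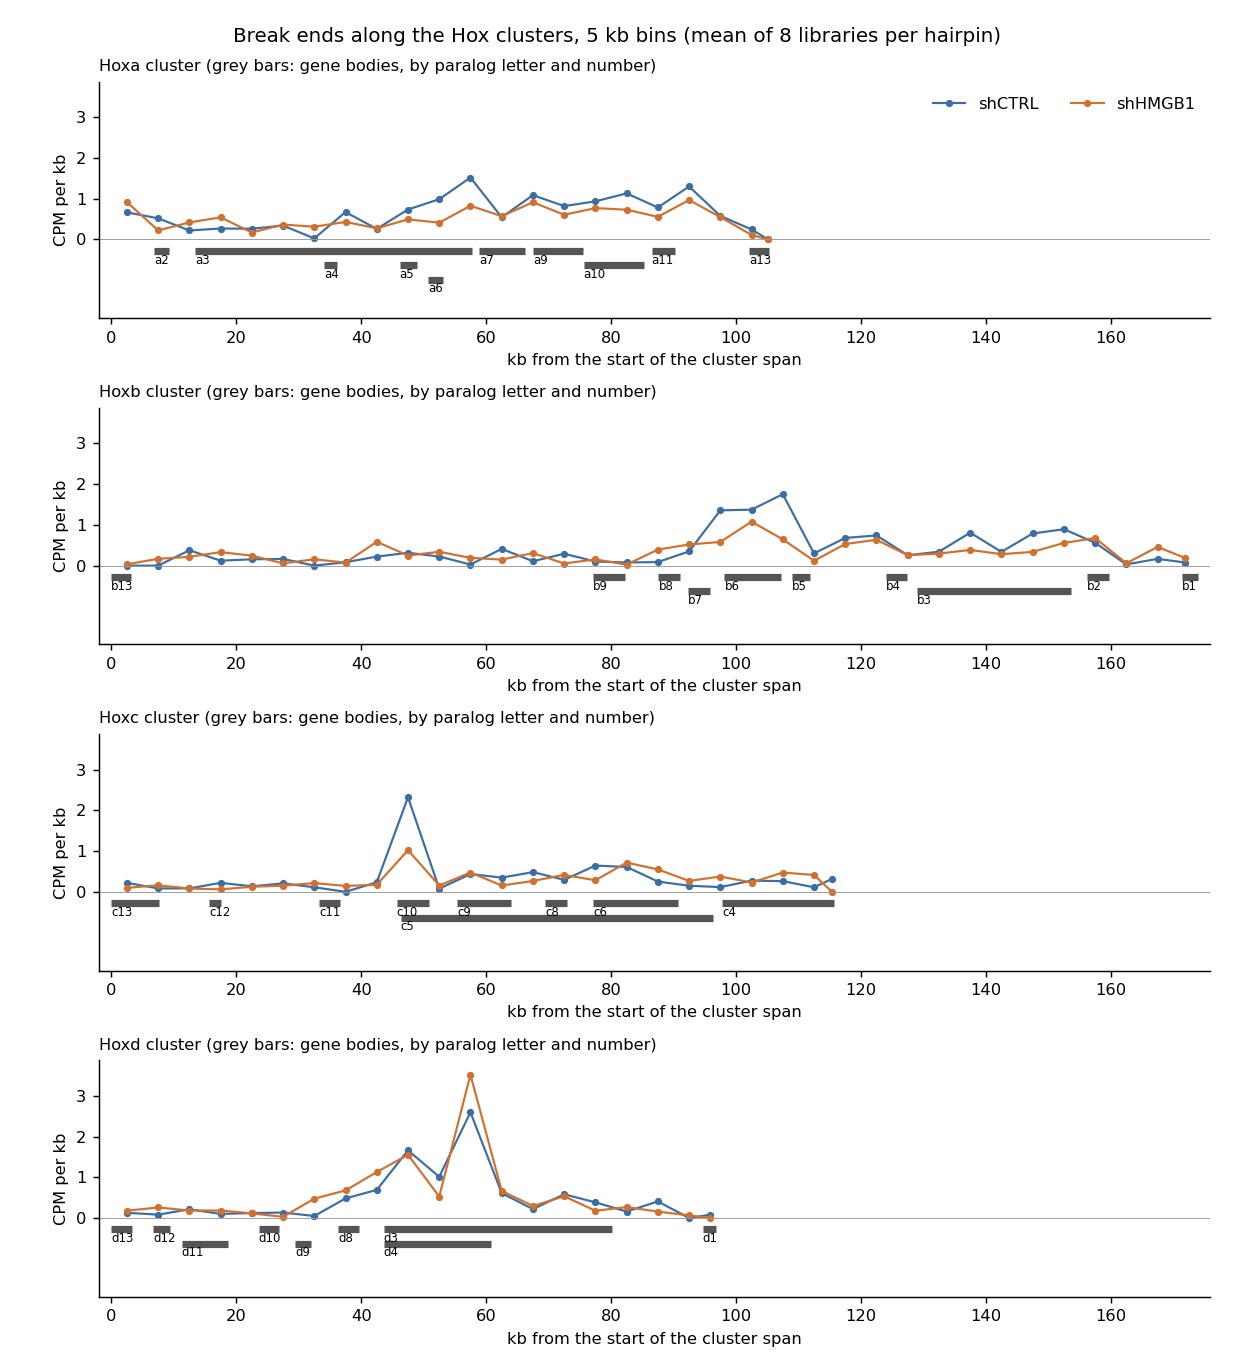
Ends in 5 kb bins along each Hox cluster, as CPM (ends scaled to a common library size) per kb on the y axis against kb from the start of the span on the x axis; lines and points are means of 8 libraries per hairpin and grey bars are the bodies of 38 of the 39 genes. The Hoxd bins at 55 to 60 kb (36.6 ends per kb summed over 16 libraries) and 45 to 50 kb (17.8) stand above their neighbours in both hairpins. So does the Hoxc bin at 45 to 50 kb (16.4).

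The Hoxa cluster was the most evenly filled, with 8 of its 11 genes above the protein-coding median of gene body density. Hoxa11, which patterns the forearm and lower leg and the uterus, led with 11.1 ends per kb (41 ends), followed by Hoxa10, a regulator of uterine and blood cell development, with 10.3 (99 ends), and Hoxa9, active in blood stem cells and in leukaemias, with 9.51 (76 ends). At gene starts Hoxa11 held 36 ends in 15 of 16 libraries, and Hoxa7, a gene of the trunk skeleton, held 26. The Hoxa7 count is that of the outermost start of its gene model, and the start of its transcript Hoxa7-201 held 9. The inner start of Hoxa10 (Hoxa10-202) held 28 ends and that of Hoxa9 (Hoxa9-202) 21. Hoxa5, needed for lung and upper trunk, held 21 at its start and 7.06 per kb, and Hoxa3, needed for thymus and parathyroid, held 19 at its start, 34 at its other start (Hoxa3-201) and 5.38 per kb over 238 ends. The low genes were Hoxa2, Hoxa4 and Hoxa13, with 4 ends each and 1.26 to 1.92 per kb. Hoxa13, which patterns the limb tips, lies at the far end of the cluster, and the longest stretch without an end in Hoxa, 1876 bases, lay in its body. Hoxa6, between them in the series, held 5.75 per kb. Hoxa4, Hoxa5 and Hoxa6 lie wholly inside the long gene model of Hoxa3 and count for both. Other annotated genes also overlap here, Hoxa11os and Gm27492 at the dense stretch by the Hoxa11 start, and Gm28308 and Hoxaas3 within Hoxa3. Without strand, ends cannot be divided among them.

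The Hoxb cluster had a single dense gene. Hoxb6, a gene of the thoracic region, held 157 ends or 17.3 per kb, higher than 96.0% of protein-coding genes, with 32 ends at its outer start and 39 at its inner start (Hoxb6-201). The long noncoding gene Hoxb5os overlaps Hoxb6, and the files keep no strand, so ends cannot be divided between them. The next genes were Hoxb3, a hindbrain and neck gene, with 5.36 per kb (132 ends), Hoxb7, known for its promoter in the budding kidney, with 5.08 (18 ends), and Hoxb2, a hindbrain gene, with 4.87 (17 ends). Hoxb2 and Hoxb4, the latter known for expanding blood stem cells, each held 14 ends at the start. Hoxb4, Hoxb5 and Hoxb8 held 2.35 to 3.26 per kb and Hoxb1, a hindbrain gene, 1.60. Hoxb9 held 0.973 per kb, and Hoxb13, a gene of the tail and prostate that stands apart from the other Hoxb genes, held 0 ends, which allows up to 3 ends or 0.958 per kb. Such limits cover counting error only.

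The Hoxc cluster was close to ordinary DNA apart from 1 position. Hoxc6 held 6.31 ends per kb (86 ends), Hoxc5 4.12 (206 ends) and Hoxc9, which sets thoracic motor neuron identity, 3.93 (34 ends). Hoxc8, which patterns motor neurons at arm level, held 3.71 and Hoxc4 3.46. Hoxc5 has a gene model of 49.99 kb that covers Hoxc6, Hoxc8, Hoxc9 and most of Hoxc10, so 69.4% of its ends are shared, and its compact transcript Hoxc5-201 held 14 ends or 3.87 per kb, with 4 at its start. The paralogs towards the tail were sparse, with 2.35 per kb at Hoxc10, 2.16 at Hoxc12, 0.908 at Hoxc13, a gene of hair and nails, and 0.609 at Hoxc11. Yet 75 ends lay within 1 kb of the start of Hoxc10, which patterns lumbar motor neurons, and 76 within 1 kb of the start of Hoxc5. Of these, 72 fell on the single base chr15:102966755, which lies 41 bases upstream of the Hoxc10 start and counts for both genes. The shCTRL libraries held 3 and 4 ends there at 0 Gy, 10 and 3 at 3 Gy, 6 and 4 at 5 Gy, and 4 and 7 at 10 Gy. The shHMGB1 libraries held 5 and 0 ends at 0 Gy, 5 and 1 at 3 Gy, 4 and 6 at 5 Gy, and 4 and 6 at 10 Gy. All libraries but shHMGB1 0 Gy replicate 2 had an end at this base, and the groups overlapped. It carried 17.4% of all ends of the cluster, within 100 bases of it there was only 1 other end, and the longest stretch without an end in Hoxc, 3600 bases, ended 2 bases before it. Whether reads of other loci align to this base was not tested. The other Hoxc genes held 2 to 11 ends at the start, most at Hoxc9 with 11 and Hoxc8 with 10.

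The Hoxd cluster was dense in its middle and sparse at both ends. Hoxd4, which patterns the neck vertebrae, held 20.4 ends per kb (352 ends), higher than 97.0% of protein-coding genes, and Hoxd3, which patterns the topmost vertebrae, 12.05 (440 ends). The annotated models of both begin within a few bases of each other, so all ends of Hoxd4 are also ends of Hoxd3. The 88 ends in the rest of Hoxd3 gave 4.56 per kb. Both starts held the same 44 ends, from 15 libraries. Hoxd8 held 6.03 per kb (20 ends), with 6 ends at the start, and Hoxd9 3.63 (9 ends). All 9 ends of Hoxd9 came from 5 shHMGB1 libraries, and shHMGB1 10 Gy replicate 1 alone held 5 of these ends. The 8 shCTRL libraries held 0, which allows up to 3 ends, but the gene was too sparse to be tested. The genes of the limbs and the tail, Hoxd10, Hoxd11, Hoxd12 and Hoxd13, held 1.11 to 1.82 per kb, with 6 ends at the start of Hoxd11 and 1 at that of Hoxd13, and Hoxd1, at the opposite end, held 1 end in its body and 0 at its start.

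Within Hoxd4 the densest stretch of ends lay before the inner start of the gene. The start of the transcript Hoxd4-202 (chromosome 2, base 74727074) had 135 ends within 1 kb, 53 from shCTRL and 82 from shHMGB1 libraries, more than 99.5% of protein-coding gene starts. The densest 50 bases, 74726901 to 74726950, held 78 ends at 27 positions, 13.2% of the ends of the cluster. Their median position was 141 bases upstream of that start, in the annotated 5' UTR of the longer Hoxd4 model, and they began 764 bases beyond the Mir10b hairpin. An exon of the gene model Gm28230 is annotated there too, and the ends cannot be divided between these models. In shCTRL these 50 bases held 3 and 4 ends at 0 Gy, 8 and 0 at 3 Gy, 3 and 2 at 5 Gy, and 1 and 12 at 10 Gy. In shHMGB1 they held 1 and 12 ends at 0 Gy, 2 and 0 at 3 Gy, 4 and 9 at 5 Gy, and 4 and 13 at 10 Gy. The high libraries were mostly those of replicate 2 and the groups overlapped. Unlike the single base in Hoxc, the most used base here, 74726934, carried 17 ends from 10 libraries, and the next carried 14 and 6. In Hoxa no base carried more than 8 ends (52212315, from 2 shCTRL libraries, and 52253187, from 6 libraries, then 52210040 with 7). In Hoxb no base carried more than 5, each of the top 3 from 1 library.

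The genes were also set out by paralog number, from those used towards the head to those used towards the tail, as a description with no test. Of the 8 genes of paralogs 1 to 3, 5 lay above the protein-coding median of gene body density (median 5.12 ends per kb), as did 11 of the 15 of paralogs 4 to 8 (5.08) and 5 of the 16 of paralogs 9 to 13 (1.78). In the last class 3 of 4 Hoxa genes were above it, 0 of 2 Hoxb, 1 of 5 Hoxc and 1 of 5 Hoxd genes. Over all 39 genes, 21 were above the median, and the median Hox gene had 7 ends at its start and 3.63 per kb, near the values of all protein-coding genes. By cluster the medians were 12 ends and 7.06 per kb in Hoxa, 8 and 2.89 in Hoxb, 6 and 3.46 in Hoxc, and 5 and 1.82 in Hoxd. At gene starts 7 genes lay above the 90th percentile and 6 below the 25th percentile of 3 ends. Those above the 90th percentile were Hoxa7, Hoxa11, Hoxb6, Hoxc5, Hoxc10, Hoxd3 and Hoxd4, as the plot of ends at each gene start shows. They are not 7 separate readings. Hoxc5 and Hoxc10 share the 72 ends of the base 102966755, and Hoxd3 and Hoxd4 share the same 44 ends. With each position counted once per library, Hoxa7, Hoxc5 and Hoxc10 stood at percentiles 88.9, 87.7 and 86.4 of protein-coding gene starts. The outer starts of Hoxa7 and Hoxc5 have no transcript in the basic set. Among starts of that set, Hoxa3, Hoxa10, Hoxa11, Hoxb6, Hoxc10, Hoxd3 and Hoxd4 lay above the 90th percentile.

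**Figure D2:**
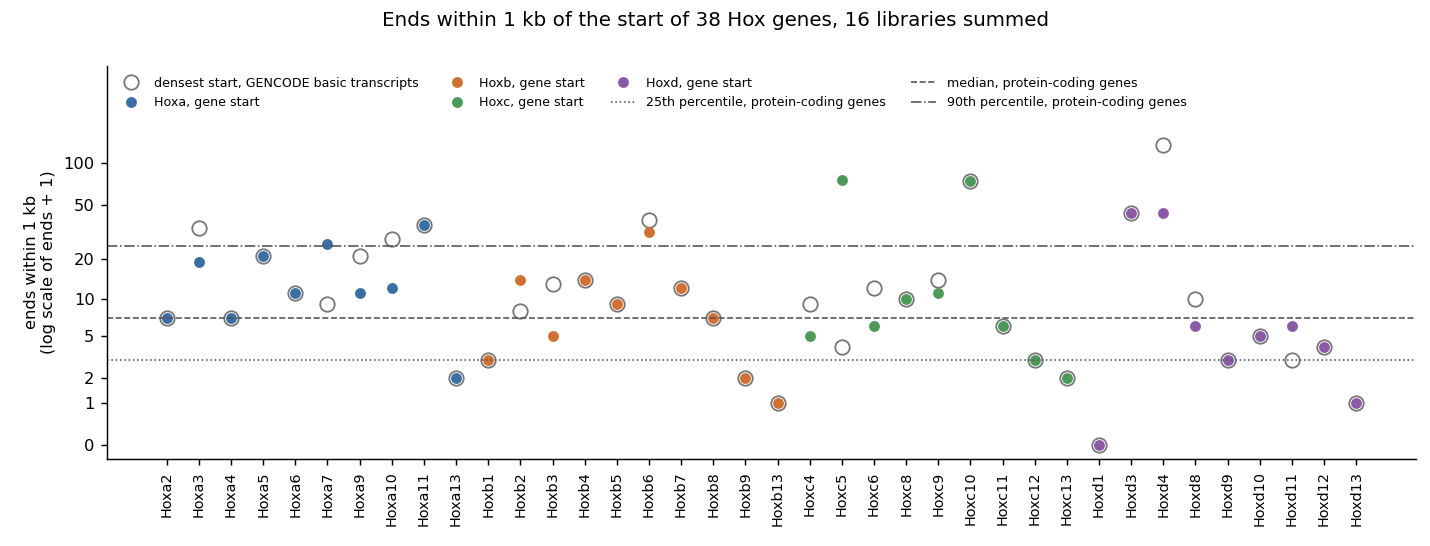
Ends within 1 kb of the start of 38 of the 39 Hox genes, summed over 16 libraries, on a log axis of ends plus 1 labelled in ends, with open circles for the start with most ends among transcripts of that gene in the GENCODE basic set and horizontal lines for percentiles of all protein-coding genes (3, 7 and 25 ends). Hoxd4 rises from 44 ends at its outer start to 135 at its inner start, and Hoxd1 has 0 at its gene start.

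The clusters were next compared with the 500 kb on either side of them, which share the chromosome and the library. Hoxd held 6.09 ends per kb against 2.81 in its flanks, and Hoxa 6.73 against 3.595. Hoxc held 3.58 against 2.89 and Hoxb 4.00 against 3.61. The log2 ratio over libraries was 1.07 ± 0.51 in Hoxd and 0.90 ± 0.33 in Hoxa (SD, n = 16), or 2.10-fold and 1.87-fold, and both were higher than their flanks in 16 of 16 libraries. The exact two-sided sign-flip permutation test gave p = 3.05e-05 for each, the smallest it can give, and 6.1e-05 after adjustment over the 4 clusters. Only the 4 Hox clusters were put to sign-flip tests, here and below. How many other regions of the genome would pass was not tested, so passing is not shown to be particular to Hox clusters. In Hoxc the log2 ratio was 0.31 ± 0.35, positive in 13 of 16 libraries (adjusted exact permutation p = 0.00415), and without the base 102966755 it was -0.05 (adjusted p = 0.746). In Hoxb it was 0.15 ± 0.31, positive in 10 of 16 (adjusted exact permutation p = 0.07), and without shHMGB1 3 Gy replicate 2 it was 0.20 (adjusted p = 0.0112). If libraries of 1 hairpin and replicate number are not separate, only 4 units remain, over which p cannot go below 0.125. Hoxd and Hoxa then had log2 ratios of 1.13 and 0.93.

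**Figure D3:**
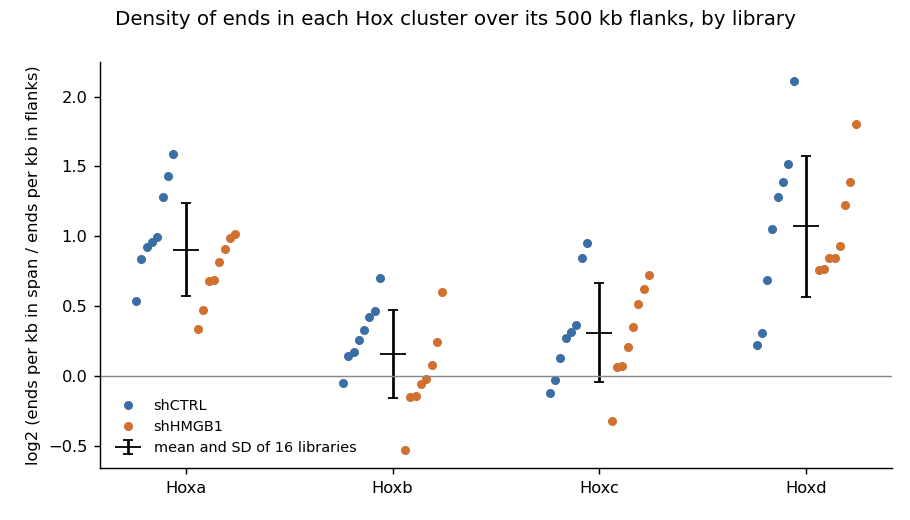
Log2 ratio of ends per kb in each cluster span to ends per kb in its flanks, 1 point per library, with the mean and SD of 16 libraries as a black bar and a line at 0. All points of Hoxa and Hoxd lie above 0 (0.34 to 1.59 and 0.22 to 2.11), while 3 of 16 in Hoxc and 6 of 16 in Hoxb lie below it.

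Set against 100 kb windows of the genome, whose median was 2.61 ends per kb, the density of Hoxa was higher than 94.3% of windows, Hoxd 92.9%, Hoxb 81.96% and Hoxc 76.9%. The number of copies of a chromosome in this tumour line bears on such levels and was not tested. The median windows of chromosomes 6, 2, 11 and 15 held 2.71, 3.10, 2.91 and 3.36 per kb. The flanks of Hoxc were uneven. On the side of higher coordinates 2 of the 50 kb pieces held 4 and 23 ends where the median piece held 112.5, and with only the other side as flank the log2 ratio of Hoxc was 0.13 (adjusted exact permutation p = 0.196). Hoxa and Hoxd kept their excess with either side alone.

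Relative to its own flanks, Hoxa exceeded Hoxb by 1.68-fold in 16 of 16 libraries (log2 0.75 ± 0.37, adjusted exact permutation p = 0.000183 over 6 pairs of clusters). It exceeded Hoxc by 1.51-fold in 14 of 16 (0.59 ± 0.47, adjusted exact permutation p = 0.00032). Hoxb lay below Hoxd in 15 of 16 libraries (-0.92 ± 0.57, adjusted exact permutation p = 0.000244), as did Hoxc (-0.76 ± 0.63, 15 of 16, adjusted exact permutation p = 0.000183). Hoxa and Hoxd (-0.17 ± 0.46) and Hoxb and Hoxc (-0.16 ± 0.42) did not differ beyond the spread between libraries (adjusted exact permutation p = 0.169 for both). The first of these passed the threshold without shCTRL 10 Gy replicate 1 (-0.23, adjusted p = 0.0472).

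Ends were not gathered at the outermost annotated start of each gene in a way common to the clusters. Within 1 kb of its gene starts Hoxc held 7.54 ends per kb against 2.96 in the rest of the cluster (log2 ratio 1.49 ± 0.99, positive in 16 of 16, adjusted exact permutation p = 0.000122), and without the base 102966755 the ratio was 0.14 (adjusted p = 0.539). In Hoxa the values were 8.23 and 6.36 per kb (0.45 ± 0.73, 12 of 16, adjusted exact permutation p = 0.0533). In Hoxb they were 5.16 and 3.86 (0.43 ± 1.22, 9 of 16, adjusted exact permutation p = 0.185). Hoxd went the other way, with 4.597 and 6.37 (-0.50 ± 1.052, 12 of 16 lower, adjusted exact permutation p = 0.0999). When the starts of all transcripts in the GENCODE basic set were used instead, the inner starts of Hoxd4 and Hoxb6 counted. The log2 ratio was then 1.14 in Hoxd (adjusted exact permutation p = 0.000122), 0.78 in Hoxb (0.0079) and 0.51 in Hoxa (0.0079). This reading was not planned, and the inner Hoxd4 start that it adds lies beside the densest stretch of the cluster, so its p-values are descriptive. The Hoxa ratio passed the threshold without any 1 of 5 libraries, namely shCTRL 10 Gy replicate 1, both shCTRL 5 Gy libraries, shHMGB1 0 Gy replicate 1 and shHMGB1 10 Gy replicate 2, with adjusted p as low as 0.0148. The Hoxd ratio passed it without shHMGB1 0 Gy replicate 1 (-0.61, adjusted p = 0.0484). By annotation, exons, introns and the DNA between genes held 7.00, 6.66 and 6.63 ends per kb in Hoxa, which was even. In Hoxd they held 9.66, 7.36 and 2.60, and the DNA between genes was at the genome median. The Hoxd exons held 198 ends, and the densest 50 bases of the cluster, annotated as Hoxd4 exon, held 78. Without the single base 74726934 the Hoxd exons held 8.83 per kb. In Hoxb introns were highest, with 4.02, 6.95 and 2.99. In Hoxc the values were 2.94, 3.64 and 3.81, and without the base 102966755 the DNA between genes held 1.72 per kb, the lowest of the 3 classes.

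The comparison of shHMGB1 with shCTRL asks whether these regions hold a larger or smaller share of the ends of a library. Levels here and after irradiation are scaled to library size, so the number of breaks per cell cannot be read from them. The Hoxa level was 0.434 to 0.969 CPM per kb in the 8 shCTRL libraries, with a median of 0.624, and 0.379 to 0.687 in the 8 shHMGB1 libraries, with a median of 0.495. Both sets overlapped, with the lowest library in each at 3 Gy and the highest at 0 Gy. The fitted log2 difference was -0.46 ± 0.19 (SE, edgeR quasi-likelihood test, unadjusted p = 0.0152, adjusted p = 0.437). Hoxb had a median of 0.394 against 0.322 (log2 -0.32 ± 0.19), Hoxc 0.309 against 0.308 (-0.28 ± 0.21) and Hoxd 0.446 against 0.544 (0.09 ± 0.20). No cluster passed an adjusted p of 0.05, 0 of 4, against a background of 0.0279% of 25131 windows and clusters tested (7 called, all lower). The unadjusted p was under 0.05 in 1 of 4 clusters and in 8.51% of all windows and clusters, and DESeq2 called 0 of 4 and 56 of all. The fitted values of Hoxa, Hoxb and Hoxc lay below 0 without passing, as did the fitted values of most dense windows. Without shCTRL 3 Gy replicate 1 the Hoxa value was -0.29 and the Hoxc value -0.18, and the Hoxb value was -0.48 and -0.21 without shHMGB1 3 Gy replicate 1 and 2. Over windows at least as dense as Hoxc the median log2 difference was -0.13 and 70.2% were below 0, and over those at least as dense as Hoxd -0.24 and 83.3%, while over all windows it was 0.02.

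Irradiated cells were compared with unirradiated cells of the same hairpin. At 0 Gy the Hoxd cluster held 0.468 and 0.974 CPM per kb in shCTRL and 0.538 and 0.926 in shHMGB1. After irradiation it held 0.423 and 0.314 at 3 Gy, 0.322 and 0.570 at 5 Gy and 0.277 and 0.635 at 10 Gy in shCTRL. In shHMGB1 it held 0.374 and 0.550 at 3 Gy, 0.583 and 0.434 at 5 Gy and 0.490 and 0.638 at 10 Gy. All 12 irradiated libraries lay below the 0 Gy mean of their hairpin, but the 0 Gy libraries of replicate 1 lay among them. Replicate 2 was higher than replicate 1 at 0 and 10 Gy in both hairpins, and over doses the shCTRL means were 0.373 ± 0.088 in replicate 1 and 0.624 ± 0.272 in replicate 2 (SD, n = 4). The fitted log2 difference of Hoxd was -0.70 ± 0.22 (edgeR quasi-likelihood test, unadjusted p = 0.00166, adjusted p = 0.368), a share of ends 0.618 times that at 0 Gy. It was -0.47 ± 0.24 in Hoxc, -0.43 ± 0.21 in Hoxa and -0.37 ± 0.22 in Hoxb, with adjusted p of 0.629 to 0.698. For Hoxa 11 of 12 irradiated libraries lay below the 0 Gy mean of their hairpin, for Hoxb 11 and for Hoxc 12. Again 0 of 4 clusters passed, against a background of 0.00398% (1 of 25131). The unadjusted p was under 0.05 in 3 of 4 clusters, all but Hoxb, and in 7.80% of all windows and clusters. DESeq2 had 1 of 4 clusters at that level and called 0 of all windows and clusters. Without shCTRL 0 Gy replicate 2 the Hoxd value was -0.40 and the Hoxa value -0.24, and without shHMGB1 0 Gy replicate 2 the Hoxb value was -0.23. Dense windows generally had fitted values below 0 after irradiation, with a median log2 difference of -0.19 and 79.3% below 0 over windows at least as dense as Hoxd, against -0.02 over all windows. The cluster levels at each dose are plotted with both libraries of each group.

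**Figure D4:**
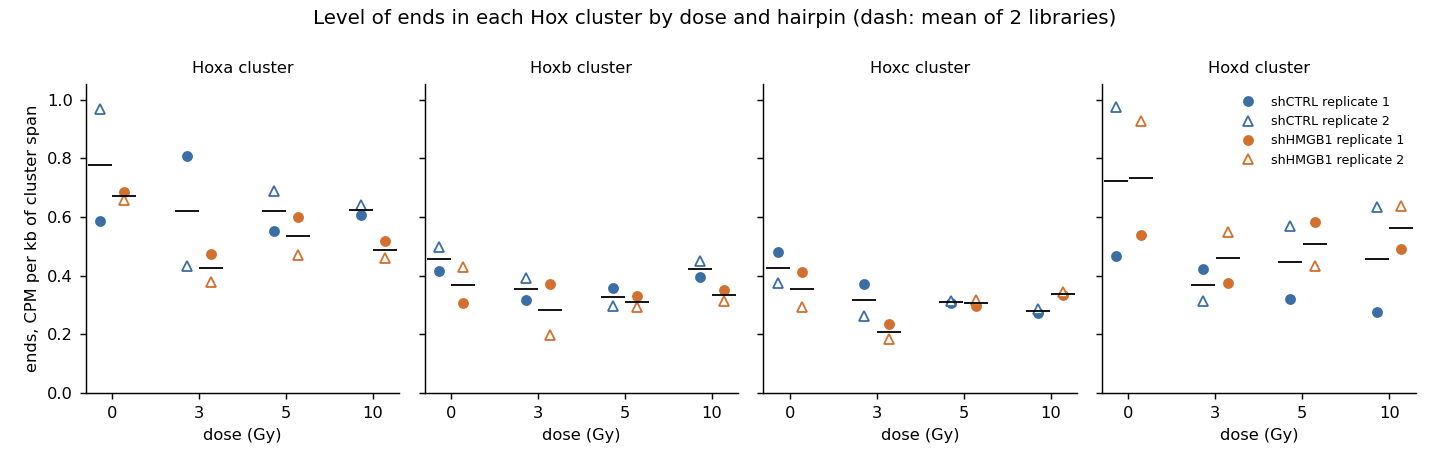
Level of ends in each Hox cluster, in CPM per kb of the span, against dose in Gy, with shCTRL and shHMGB1 side by side, filled circles for replicate 1, open triangles for replicate 2 and a dash at the mean of 2 libraries. In Hoxd both hairpins have their highest library at 0 Gy (0.974 and 0.926), while the 0 Gy libraries of replicate 1 (0.468 and 0.538) sit within the range of the irradiated libraries.

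Among 3, 5 and 10 Gy the means had no order common to the clusters and hairpins. In Hoxa the shCTRL means were 0.778, 0.621, 0.620 and 0.624 CPM per kb at 0, 3, 5 and 10 Gy and the shHMGB1 means 0.672, 0.426, 0.535 and 0.488. In Hoxb they were 0.457, 0.355, 0.327 and 0.422 in shCTRL and 0.369, 0.285, 0.312 and 0.333 in shHMGB1. In Hoxc they were 0.428, 0.318, 0.309 and 0.279 in shCTRL and 0.353, 0.209, 0.308 and 0.339 in shHMGB1. In each cluster 0 Gy had the highest mean in both hairpins. The difference between hairpins in the irradiation response was -0.26 in Hoxa, 0.06 in Hoxb, 0.12 in Hoxc and 0.14 in Hoxd on the log2 scale. None passed, 0 of 4, against a background of 0.0% (edgeR quasi-likelihood test), where 1305 of all windows and 0 of the clusters had an unadjusted p under 0.05.

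Among single genes 8 of the 39 held enough ends to be tested, namely Hoxa3, Hoxa7, Hoxa10, Hoxb3, Hoxb6, Hoxc5, Hoxd3 and Hoxd4, and the other 31 did not pass the filter on low counts. Between the hairpins the fitted differences of Hoxb6 and Hoxb3 were furthest from 0. Hoxb6 ranged from 0 to 30.7 CPM in shCTRL with a median of 15.6, and from 2.66 to 14.7 in shHMGB1 with a median of 10.3. Hoxb3 ranged from 6.19 to 20.4 CPM in shCTRL with a median of 15.7, and from 3.63 to 20.4 in shHMGB1 with a median of 7.55. The libraries of the hairpins overlapped in both genes. The log2 difference was -0.74 ± 0.34 in Hoxb6 (edgeR quasi-likelihood test, unadjusted p = 0.0331, adjusted p = 0.455) and -0.74 ± 0.36 in Hoxb3 (0.0443 and 0.495). Without shCTRL 3 Gy replicate 1 the Hoxb6 value was 0.84, and the other shCTRL library at 3 Gy held 0 ends in this gene. Without shCTRL 5 Gy replicate 1 it was -0.49. Hoxa10 (-0.49 ± 0.44, and 0.78 without shCTRL 0 Gy replicate 2) and Hoxa3 (-0.31 ± 0.27, and -0.06 without shCTRL 3 Gy replicate 1) were also below 0, and Hoxc5, Hoxa7, Hoxd3 and Hoxd4 lay between -0.11 and 0.06. Of the 8 genes 0 passed, against a background of 0.249% (32 of 12848 genes, 21 of them lower, and 22 without TMM scaling, 19 of them lower). Their median was -0.21 against 0.03 over all genes tested. At an unadjusted p under 0.05 there were 2 of the 8 and 1255 of all genes. DESeq2 called 31 of all genes but gave none of the 8 an adjusted p here.

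After irradiation the members with an unadjusted p under 0.05 were Hoxd3 and Hoxd4, which share their ends. Hoxd3 held 35.05 and 68.9 CPM in shCTRL and 39.04 and 72.6 in shHMGB1 at 0 Gy, and 13.98 to 55.7 with a median of 32.9 in the 12 irradiated libraries. Hoxd4 held 30.9 and 43.4 in shCTRL and 34.7 and 56.7 in shHMGB1 at 0 Gy, and 9.32 to 46.1 with a median of 26.2 after irradiation. The irradiated libraries overlapped those at 0 Gy in both. The log2 difference was -0.63 ± 0.24 in Hoxd3 (edgeR quasi-likelihood test, unadjusted p = 0.0108, adjusted p = 0.582) and -0.55 ± 0.27 in Hoxd4 (0.0403 and 0.687). Without shHMGB1 0 Gy replicate 2 the values were -0.37 and -0.35, and without shCTRL 0 Gy replicate 2 that of Hoxd3 was -0.41. Hoxc5 held 22.7 to 26.8 CPM in the 4 libraries at 0 Gy and 0 to 23.7 with a median of 15.5 after irradiation, a narrow overlap, with a log2 difference of -0.56 ± 0.33, and of -1.64 without shCTRL 3 Gy replicate 1. Hoxa7 had the fitted value furthest from 0 and the widest error. It stood at 16.5 and 17.9 CPM in shCTRL at 0 Gy but at 2.89 and 6.81 in shHMGB1 at 0 Gy, and at 0 to 7.62 in the irradiated libraries (-1.004 ± 0.63, with -1.75 without shCTRL 5 Gy replicate 2 and -0.63 without shHMGB1 0 Gy replicate 2). Of the 8 genes 0 passed, against a background of 0.0389% (5 of 12848), with a median of -0.41 against -0.01 over all genes. The unadjusted p was under 0.05 in 2 of the 8 and in 904 of all genes, and DESeq2 called 0 of the 8 and 0 of all genes.

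The fitted difference between hairpins in the irradiation response was furthest from 0 in Hoxa7 (log2 2.21 ± 1.25) and Hoxa10 (-2.04 ± 1.04), with opposite signs. Hoxa10 held 0 and 12.8 CPM in shCTRL at 0 Gy and 14.5 and 10.2 in shHMGB1 at 0 Gy. After irradiation it held 5.91 to 17.1 in shCTRL and 2.42 to 7.91 in shHMGB1. The value of 0 came from shCTRL 0 Gy replicate 1, without which the Hoxa10 difference was -1.03, and without shCTRL 0 Gy replicate 2 it was -7.13. The Hoxa7 difference was 3.71 without shCTRL 5 Gy replicate 2. By edgeR's quasi-likelihood test the adjusted p was 0.966 for Hoxa7 and 0.956 for Hoxa10, and 0 of the 8 genes passed, against a background of 0.0%. At an unadjusted p under 0.05 there were 0 of the 8 and 678 of all genes, and DESeq2 called 0. The plot of fitted differences places the 8 genes and the 4 clusters on 1 scale.

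**Figure D5:**
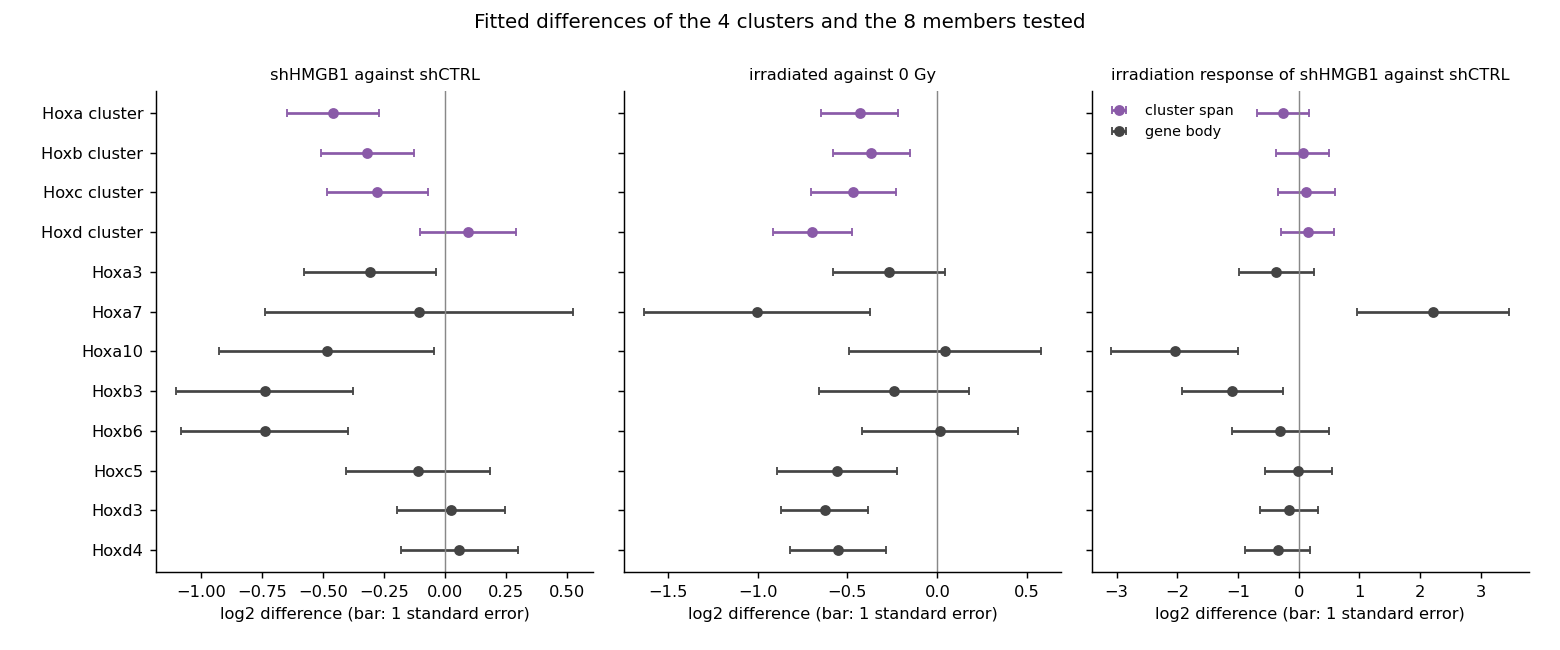
Fitted log2 differences of the 4 clusters and the 8 tested Hox genes in 3 comparisons (shHMGB1 against shCTRL, irradiated against 0 Gy, and the difference of that response between hairpins), with bars of 1 standard error and a line at 0. All 4 clusters lie below 0 after irradiation, from -0.37 in Hoxb to -0.70 in Hoxd, and the widest bars belong to Hoxa7 and Hoxa10 in the third comparison.

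The genes that act with or on the Hox genes were read in the same way. The cofactors of the TALE family, which bind DNA together with Hox proteins, had a median of 11 ends at the start over 9 genes, with 28 at Meis2 and 17 at Pknox1. The Polycomb repressors had a median of 9 over 21 genes, 5 of them above the 90th percentile, led by Rbbp7 with 292, Rbbp4 with 51 and Cbx6 with 37. The trithorax and MLL activators had a median of 15 over 11 genes, led by Ash1l with 101 and Kmt2b with 64. Upstream patterning regulators, among them the retinoic acid and Cdx genes, had a median of 2 over 11 genes, with 11 at Cdx2 and 8 at Rarg. Other homeobox genes near or akin to the clusters also had a median of 2 over 16 genes, with 18 at Dlx1. Of the noncoding RNA genes 17 of 18 were found, with a median of 7, led by Mir10b, by Hoxd3os1 with 34 and by Hoxa11os with 18. The surroundings of Mir10b share ends with the inner Hoxd4 start. Hotair, in the Hoxc cluster, had 1. The protein-coding neighbours of the clusters had a median of 10 over 38 genes, led by Hnrnpa2b1 with 68 and Cbx3 with 60. In none of the 3 comparisons did any tested gene of these lists pass an adjusted p of 0.05 (edgeR quasi-likelihood test). The tested genes numbered 8 cofactors, 15 Polycomb, 10 trithorax and MLL, 4 patterning, 1 other homeobox, 3 noncoding and 28 neighbouring genes, and 6 mesothelial, 6 fibroblast, 2 blood and 4 neuronal markers. The median log2 difference between hairpins ran from -0.32 in the noncoding genes to 0.00 in the neighbouring genes over the first 7 of these lists, and that after irradiation from -0.25 in the noncoding genes to 0.36 for the single homeobox gene.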

How the data were processed

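BLISS libraries of AB22 cells, 16 in all, were analysed from the lists of ends that were deposited. Per the submitters' processing notes the authors used Trimmomatic 0.32, UMI-tools, BWA 0.7.5-r404, SAMtools and bedtools on build mm10. The deposited values are counts of ends left after removal of duplicate molecules, not normalised and without strand. Each end was placed at its own position, 1-based. Counts per gene body (GENCODE M21, protein-coding and long noncoding) and per 100 kb window plus the 4 cluster spans were tested with edgeR 4.0.16 (R 4.3.3), with TMM, filterByExpr and glmQLFTest on 8 group means, adjusted by Benjamini-Hochberg over the whole table. Densities were compared by exact sign flips over libraries after adding 0.5 ends. Alternatives were DESeq2 1.42.0, no TMM, no filter, distinct positions, other flanks and promoters, the replicate number as a block, and each library left out. The scripts were tested on simulated data. The members, gene lists and naming rule (all members that passed the filter, the 3 densest genes and starts and the 3 most used positions per cluster, and up to 3 genes per list) were chosen with earlier results of these data known. 1 Hox gene and 1 cofactor counted in the totals are not reported singly here. Mesothelial, fibroblast, blood and neuronal markers, Hox cofactors, Polycomb, trithorax and MLL, patterning, homeobox, noncoding and neighbouring genes formed the lists.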

Additional observations from a re-analysis of the deposited data

How the results depend on the processing

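0 Hox genes and 0 Hox clusters passed in any of 45 alternative fits (23 of genes, 22 of windows), each read in 3 comparisons and including each library left out. In the DESeq2 comparison of hairpins the Hox genes had no adjusted p and could not pass. The replicate number was not used to pair libraries, since deviations of same-numbered libraries correlated below a threshold of 0.1. The correlations were 0.025 to 0.061 within a hairpin (median 0.054) and -0.091 to 0.030 between hairpins (median 0.0025). All those within a hairpin were positive. With few ends per gene, counting noise keeps such correlations low, so the check cannot show that same-numbered libraries are separate. With the replicate block 44 genes and 16 windows were called between hairpins and 5 genes and 6 windows after irradiation, against 32 and 7, and 5 and 1, without it. With the block within each hairpin the counts were 13 and 0, and 20 and 9. Other settings that moved these counts by over 1.5 times were each position once (68 genes, 60 of them lower, and 12 windows between hairpins, 2 and 0 after irradiation), DESeq2 (56 windows, 0 genes and 0 windows), no TMM (4 windows), no filter (13 windows, 3 genes) and 2.5 kb around starts (14 starts, 0). With single libraries left out they ran from 18 to 160 genes and 3 to 139 windows between hairpins, both highest without shHMGB1 3 Gy replicate 1, and from 1 to 22 genes and 0 to 9 windows after irradiation. The block turned the irradiation differences of Hoxa10 (-0.0083) and Hoxb6 (-0.015) and the hairpin difference of Hoxd3 (-0.0012). With libraries of a hairpin and number summed, a block of 4 units, the log2 ratios to flanks were 0.93 in Hoxa, 0.30 in Hoxc and 1.13 in Hoxd, those between clusters 0.76 (Hoxa over Hoxb), 0.64 (Hoxa over Hoxc), -0.96 (Hoxb over Hoxd) and -0.83 (Hoxc over Hoxd), and that of starts in Hoxc 1.38, and none can pass with 4 units. Against its flanks Hoxb was 0.32 with each position counted once, -0.020 with the flank of higher coordinates, 0.36 with the lower, -0.040 with 1 Mb, 0.41 with 250 kb and 0.37 against the median window of the chromosome. Hoxc was 0.18 with each position counted once, 0.13 with the lower flank, 0.095 against the median window and -0.046 without its most used position. Hoxa over Hoxc was 0.23 with the higher flank. Hoxa over Hoxd was -0.43 with the higher flank, 0.12 with the lower, 0.21 with 1 Mb, 0.18 with 250 kb and 0.43 against the median window. Hoxb over Hoxc was 0.14 with each position once, -0.54 with the higher flank, 0.23 with the lower, -0.28 with 1 Mb, 0.033 with 250 kb, 0.28 against the median window and 0.19 without the most used position. Starts against the rest gave 0.53 with each position once, 0.51 with every basic transcript start and 0.54 with 2.5 kb in Hoxa, 0.78 with every start and -0.35 with 500 bases in Hoxb, 0.14 without the most used position in Hoxc, and 1.14 with every start, -0.71 with 2.5 kb and 0.012 with 500 bases in Hoxd.

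Among uncalled values of single genes and clusters, those that changed sign were, without TMM, Hoxa10 (-0.027) and Hoxb6 (-0.029) after irradiation and Hoxd3 between hairpins (-0.029), with DESeq2 Hoxb6 after irradiation (-0.0089) and the response of Hoxc5 (0.052), with 2.5 kb around the start Hoxc5 after irradiation (0.86) and the responses of Hoxa3 (1.11) and Hoxc5 (0.50), and with each position once the responses of the Hoxc (-0.045) and Hoxd (-0.12) clusters and Hoxd3 between hairpins (-0.024). Without TMM the median over all windows was 0.11 between hairpins and 0.06 after irradiation. With single libraries left out the ratios to flanks ran from 0.12 to 0.20 in Hoxb, those of Hoxa over Hoxd from -0.23 to -0.11, and those of starts from 0.34 to 0.54 in Hoxa and -0.62 to -0.37 in Hoxd. Between hairpins the sign changed over the ranges -0.75 to 0.78 (Hoxa10), -0.56 to 1.03 (Hoxa7), -1.02 to 0.84 (Hoxb6), -0.21 to 1.53 (Hoxc5), -0.11 to 0.30 (Hoxd3), -0.094 to 0.40 (Hoxd4) and -0.018 to 0.25 (Hoxd cluster). After irradiation it did over -0.46 to 2.59 (Hoxa10), -0.53 to 0.35 (Hoxb3) and -1.03 to 0.39 (Hoxb6). For the difference in response it did over -2.02 to 0.10 (Hoxb3), -1.05 to 1.79 (Hoxb6), -0.24 to 2.17 (Hoxc5), -0.60 to 0.36 (Hoxd3), -0.64 to 0.11 (Hoxd4), and -0.63 to 0.06, -0.15 to 0.31, -0.13 to 0.39 and -0.44 to 0.59 (the Hoxa, Hoxb, Hoxc and Hoxd clusters). The fit with a library left out has 1 library in a group and assumes that it varies like the others. The cause of these changes was not tested, and the few ends per gene limit every single gene value.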
